A study of Homo sapiens with 6 samples.

Results

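The cytosolic ribosomal protein genes encode the protein part of the ribosome that translates nuclear-encoded mRNA. They were taken by name: protein-coding genes whose symbol is RPL or RPS followed by digits, with an optional A, X or L and further digits, together with RPSA, RPLP0, RPLP1 and RPLP2. The kinases of ribosomal protein S6, such as RPS6KB1, are outside the rule. The rule found 83 genes among the 18278 listed, 51 of the large subunit and 32 of the small subunit. It uses no expression value, though it was chosen with earlier results of these data known. It matches 85 genes in GENCODE release 29, of which RPL3L and RPL10L are not analysed here. The study set 3 samples of the Toledo line treated with 5 uM TP-064 for 6 days against 3 samples given DMSO, the solvent control, for the same 6 days. Toledo is an established human B cell lymphoma line that grows in suspension, and TP-064 is a small-molecule inhibitor of CARM1, an arginine methyltransferase of histones and transcriptional coactivators. Both groups are of 1 line, and nothing in the labels tells whether replicate samples were grown as separate cultures. The p-values below therefore set differences only against the spread among these samples, which may reflect technical variation.

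Ribosomal proteins assemble with ribosomal RNA into a small subunit, which decodes the mRNA, and a large subunit, which forms the peptide bond. Each ribosome needs 1 copy of nearly every protein, and most of their mRNAs start with a tract of pyrimidines at the 5′ end that ties their translation to mTORC1 signalling and the binding protein LARP1. A few proteins have a paralog from a second gene, and several have duties away from the ribosome: RPL5 and RPL11, bound to 5S ribosomal RNA, can hold back the ubiquitin ligase MDM2.

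The largest differences in the group lay in paralogs, so the coding sequences of the 2 paralog pairs with the greatest change are shown first. They are the coding parts of GENCODE release 29 transcripts without the stop codon, 5′ to 3′, and capitals mark each base that differs between the members of a pair. RPL39L lies at chr3:187120948-187180908 on the minus strand and RPL39 at chrX:119786504-119791643 on the minus strand of GRCh38. RPS27L lies at chr15:63125872-63158021 on the minus strand and RPS27 at chr1:153990755-153992155 on the plus strand.
RPL39L: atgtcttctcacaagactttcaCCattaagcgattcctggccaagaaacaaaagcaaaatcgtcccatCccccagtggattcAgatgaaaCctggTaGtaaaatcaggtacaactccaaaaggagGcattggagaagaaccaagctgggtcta
RPL39: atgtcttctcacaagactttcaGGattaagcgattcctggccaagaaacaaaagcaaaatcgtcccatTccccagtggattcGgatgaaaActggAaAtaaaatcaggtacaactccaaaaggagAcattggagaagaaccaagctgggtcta
RPS27L: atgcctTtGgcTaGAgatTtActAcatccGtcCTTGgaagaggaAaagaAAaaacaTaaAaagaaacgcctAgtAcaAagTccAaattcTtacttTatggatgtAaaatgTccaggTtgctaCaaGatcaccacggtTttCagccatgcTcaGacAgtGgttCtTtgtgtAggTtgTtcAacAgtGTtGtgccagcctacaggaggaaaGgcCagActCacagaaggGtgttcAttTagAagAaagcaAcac
RPS27: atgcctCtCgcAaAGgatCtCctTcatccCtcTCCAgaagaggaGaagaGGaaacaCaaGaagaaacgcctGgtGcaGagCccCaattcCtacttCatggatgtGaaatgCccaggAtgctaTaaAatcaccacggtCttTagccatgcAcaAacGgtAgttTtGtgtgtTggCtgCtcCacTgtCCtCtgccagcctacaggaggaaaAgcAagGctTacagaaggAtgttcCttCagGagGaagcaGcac
The first pair differs at 8 of 153 bases, an identity of 94.8%, and its longest stretch without a difference is 44 bases. The second pair differs at 56 of 252 bases, an identity of 77.8%, with a longest common stretch of 20 bases. Reads from within such stretches could have come from either gene, while the untranslated parts were not compared.

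The second set of sequences shows the start of the mRNA, where the pyrimidine tract lies. Each line gives 10 bases before and 20 bases from the annotated RefSeq start on GRCh38.p14, read on the strand of the gene, and capitals mark a run of at least 5 C or T that opens the transcript. RPL39, RPS27, RPL13A and RPL31 are shown as members that rose and RPS16 and RPL28 as members that fell.
RPL39: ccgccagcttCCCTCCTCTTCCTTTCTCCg
RPS27: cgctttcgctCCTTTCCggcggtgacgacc
RPL13A: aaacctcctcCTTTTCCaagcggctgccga
RPL31: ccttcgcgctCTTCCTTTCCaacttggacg
RPS16: ccctagctttCCTTTTCCggttgcggcgcc
RPL28: cctcgccttcCTCTTTCCgtctcaggtcgc
The windows are chrX:119791611-119791640 for RPL39, chr1:153990752-153990781 for RPS27, chr19:49487598-49487627 for RPL13A, chr2:101002279-101002308 for RPL31, chr19:39435930-39435959 for RPS16 and chr19:55385922-55385951 for RPL28. RPS4X, RPS27L and RPL26L1 are shown because they have no such run.
RPS4X: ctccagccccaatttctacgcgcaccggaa
RPS27L: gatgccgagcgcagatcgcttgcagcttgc
RPL26L1: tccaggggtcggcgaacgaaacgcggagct
These windows are chrX:72277229-72277258 for RPS4X, chr15:63157458-63157487 for RPS27L and chr5:172958719-172958748 for RPL26L1. Of 83 members, 67 were matched to a start by symbol, 11 of them to more than 1 start, and the start with the longest run was used for members and for all other genes. A run of at least 5 C or T, on the strand of the gene and from the first base, opened 47 of these 67 members, or 70.1%. It opened 6.50% of the 27305 genes with a start in the same set. The longest run was 19 bases, in RPL39, and 51 of the 67 members had C as the first base.

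The 6 libraries held 41354131 to 48360867 reads in listed genes. All 7 B cell markers looked up were listed, with a summed level of 95371 to 102749 normalized read counts in the TP-064 libraries and 100462 to 102419 in the DMSO libraries. Within that sum each marker changed: 5 fell, from -0.32 for CD79B to -2.54 for CD22 on the log2 scale, and MS4A1 and PAX5 rose by 0.90 and 0.31. Of 5 T cell, 5 myeloid, 4 stromal, 4 epithelial and 5 erythroid markers, 6 in all were listed. The T cell list, with CD247 alone listed, was at 11.9 to 12.2 after TP-064 and 28.03 to 42.75 in DMSO. The stromal list, with COL1A1 alone, was at 135 to 137 and 273 to 305. The myeloid list summed to 71.2 to 99.5 and 34.6 to 65.6, but its 3 listed genes differed. CSF1R rose, at 2.35 on the log2 scale, CD14 fell, at -1.30, and LYZ was not called. The epithelial list, with KRT8 alone, overlapped, at 8.12 to 17.8 and 2.16 to 15.9. CD3D, CD3E and COL1A2 were among the markers not listed. Their part in the results was not tested. The member values of TP-064 replicate 2 stood apart from those of the other TP-064 libraries: its median over members was 15.84 on the log2 scale, against 15.72 in replicate 1 and 15.75 in replicate 3. The DMSO libraries had medians of 15.74, 15.79 and 15.76, also highest in replicate 2. Counts of members are therefore also given without TP-064 replicate 2.

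Ribosomal protein mRNAs split into small rises and small falls after TP-064, with no common direction. Of the 83 members, all of which averaged 10 or more normalized read counts and so entered the fit, 23 rose, 19 fell and 41 did not pass limma's test at an adjusted p of 0.05 over all genes. That is 50.6% of members called, against 65.1% of the 16048 genes tested. By direction, 27.7% of members rose, against 31.9% of all genes, and 22.9% fell, against 33.3%. The median log2 fold change, TP-064 over DMSO, was 0.02 over members and 0.01 over all genes. The sizes were smaller than elsewhere: the median absolute log2 fold change was 0.11 over members and 0.35 over all genes, and 69 of 83 members lay within 0.25 of no change. One member, RPL39L, passed a change of at least 2-fold, which 13.1% of all genes did. Standard errors ran from 0.03 to 0.08. The 3 TP-064 values lay wholly above the 3 DMSO values in 23 members, against 33.9% of all genes, and wholly below in 15, against 35.2%. Together these are 38 of 83 members, against 69.1% of all genes.

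Members are among the most abundant mRNAs, so other protein-coding genes averaging 10000 or more were set beside them. Of those 708 genes, 87.0% were called (25.1% rising) and 15.0% passed a 2-fold change, with a median log2 change of -0.25 and a median absolute change of 0.39. Their median standard error was 0.04, inside the range of the members. Without TP-064 replicate 2 the count over all 83 members became 21 rising and 29 falling, with a median log2 fold change of -0.02. In that fit 10260 of the 16048 genes were called, and the median over all genes was 0.006. The plot of fold changes shows a continuous series from fall to rise in each subunit, from which RPL39L stands off at the low end.

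**Figure D1:**
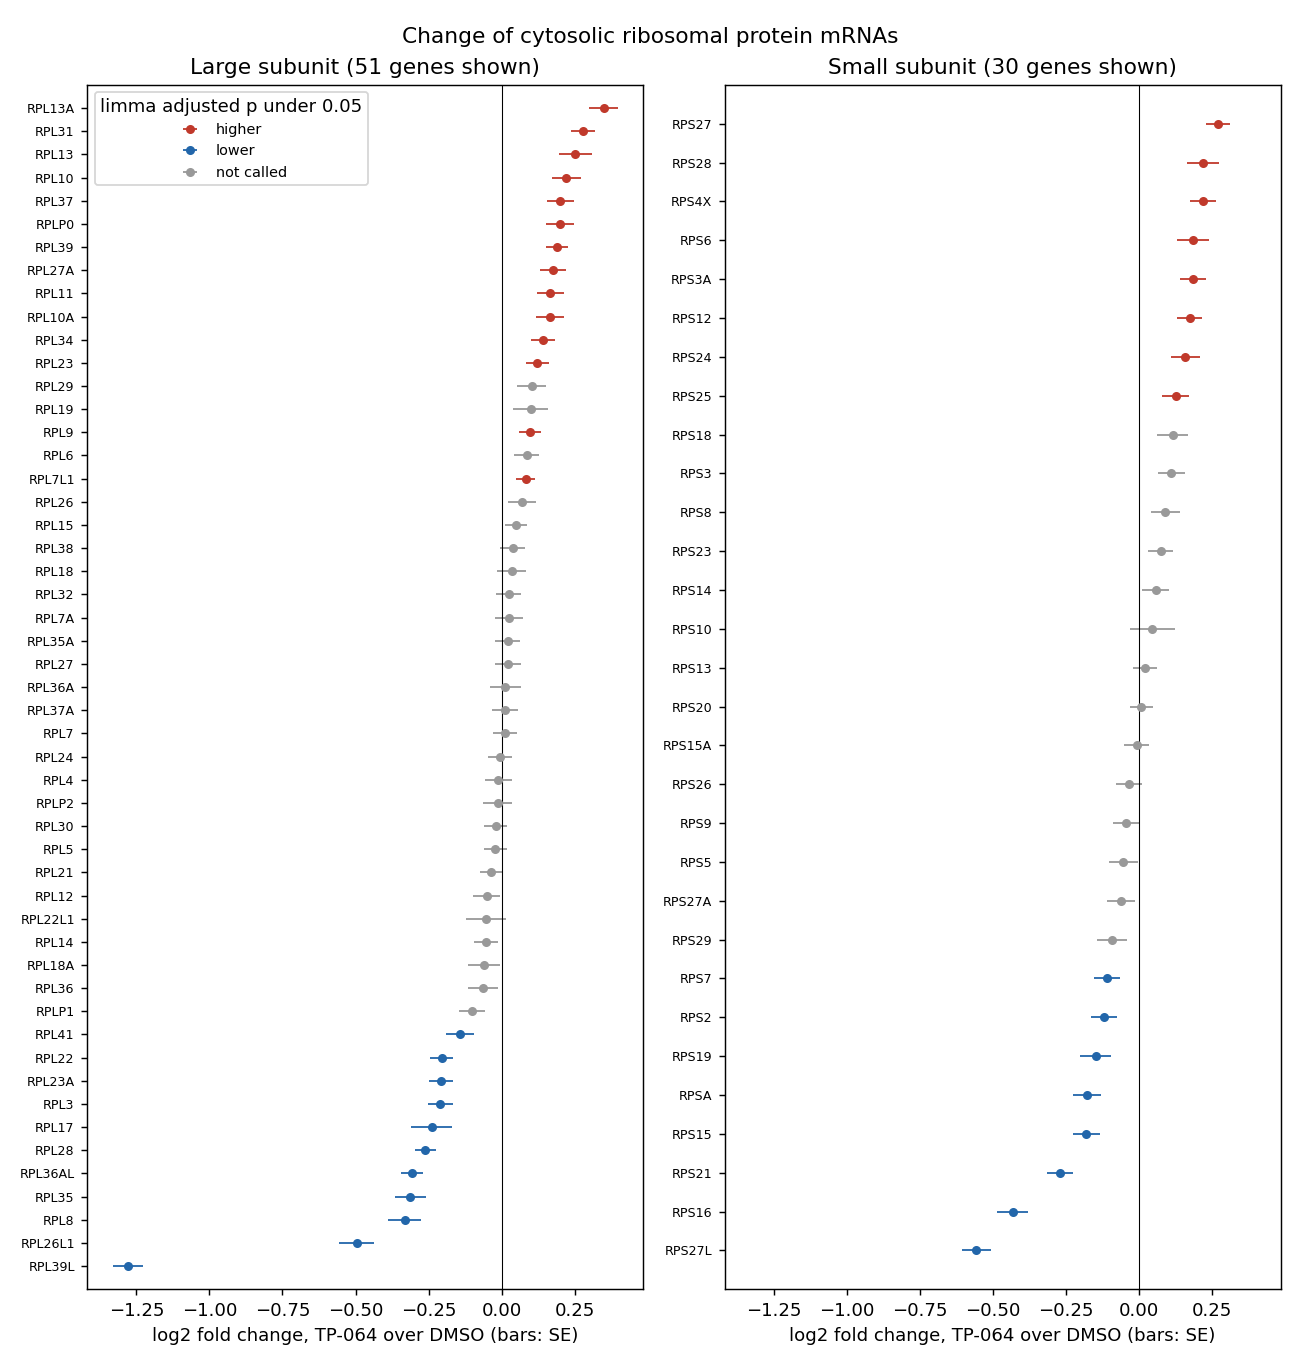
Log2 fold change of 51 large subunit and 30 small subunit genes, TP-064 over DMSO, with standard errors as bars and 3 samples per group. Red and blue points passed limma's adjusted p of 0.05, and all genes shown but RPL39L lie between -0.56 and 0.35.

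The share of sequenced mRNA held by these genes was larger in the treated samples. Members took 11.96%, 12.75% and 12.20% of listed reads in TP-064 replicates 1, 2 and 3, and 10.79%, 11.01% and 10.88% in the DMSO replicates. The groups did not overlap, and their means were 12.3% ± 0.403 and 10.9% ± 0.113 (SD, n = 3 each), a difference of 1.41 percentage points. Large subunit genes held 7.46% ± 0.259 after TP-064 and 6.65% ± 0.0697 in DMSO, and small subunit genes 4.84% ± 0.146 and 4.25% ± 0.0528. Leaving out any 1 library gave differences between 1.19 and 1.58 points.

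The larger share and the even split of members rest on different scales. The deposited values are scaled so that the typical gene has the same value in each library, and the scaled libraries then sum to 41997457 to 43827820 in TP-064 and 46122600 to 46775877 in DMSO. When each library was scaled to its total of listed reads instead, 53 members rose and 12 fell, and their median log2 fold change was 0.14. The median of all genes moved by nearly as much, to 0.13, and 67.3% of genes were called, 41.5% rising and 25.9% falling. The members' median lay 0.01 above that of all genes on either scale. These totals do not measure cell number or RNA per cell, and RNA per cell was not measured. In bulk samples fewer cells and less RNA per cell cannot be told apart.

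**Figure D2:**
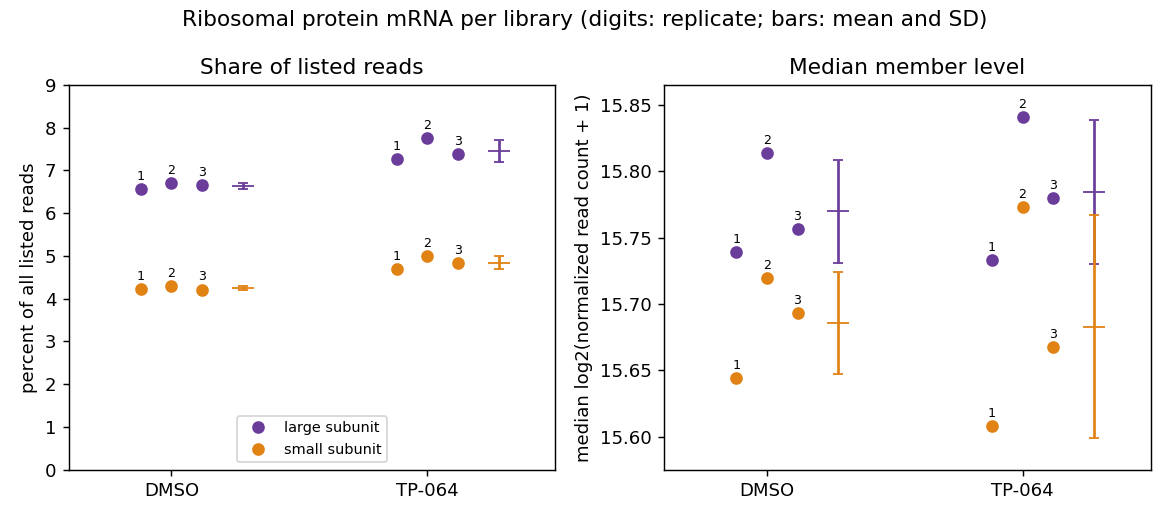
Left, percent of all listed reads in large and small subunit genes in each library; right, median log2 of the normalized read count plus 1 over the same genes, on an axis that does not start at 0. Points are libraries with their replicate digit and bars are mean and SD of 3; the shares separate the groups and the medians do not.

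Both subunits held rising and falling genes. In the large subunit 14 of 51 genes rose and 11 fell, and the median log2 fold change was 0.01. In the small subunit 9 of 32 rose and 8 fell, with a median of 0.03. The falling count of the small subunit rested on single libraries: it was 13 without TP-064 replicate 2, and 5 without TP-064 replicate 1, TP-064 replicate 3 or DMSO replicate 2. Without TP-064 replicate 2 the large subunit had 13 rising and 16 falling genes and the small subunit 8 rising genes. Scaled to library totals, 34 rose and 9 fell in the large subunit and 19 rose and 3 fell in the small subunit. The medians differed by -0.02, large minus small, and this difference changed sign without TP-064 replicate 3, at 0.013, without DMSO replicate 3, at 0.0053, and without the 16 members that have exons opposite another gene, at 0.034. It also did so without the 5 members that share most of their mRNA with another gene, at 0.0019. No test was made over members, since genes of 1 subunit are not replicates. Without the L-suffixed paralogs, 22 of 77 members rose and 15 fell, and their log2 fold changes ran from -0.43 to 0.35.

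The 3 largest falls were in paralogs. RPL39L encodes a form of the exit tunnel protein RPL39 that is known for its expression in male germ cells and some tumours. The treated libraries had 722, 737 and 654 normalized read counts of RPL39L, and the DMSO libraries 1692, 1712 and 1718. The groups were far apart, and the log2 fold change was -1.28 ± 0.05 (SE, as for each log2 fold change below), with a limma adjusted p of 1.63e-11. RPL39 itself was at 72174, 75093 and 75512 after TP-064 and 64922, 65998 and 64428 in DMSO. It moved the other way, rising by 0.19 ± 0.04 with an adjusted p of 0.000340. RPL39L made up 0.990%, 0.972% and 0.859% of the pair's reads after TP-064 and 2.54%, 2.53% and 2.60% in DMSO.

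RPS27L, which encodes a relative of the small subunit protein RPS27, stood at 749.9, 795 and 768 after TP-064 and at 1107, 1149 and 1147 in DMSO. No TP-064 value reached a DMSO value, and the log2 fold change was -0.56 ± 0.05, with a limma adjusted p of 1.14e-07. Its counterpart RPS27 was at 126960, 133227 and 125694 after TP-064 and at 105801, 109493 and 104361 in DMSO. RPS27 rose by 0.27 ± 0.04, with an adjusted p of 3.46e-05, so that this pair too moved in opposite directions.

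RPL26L1 encodes a close relative of RPL26, a large subunit protein near the exit of the tunnel. RPL26L1 had 518, 567 and 531 normalized read counts after TP-064 and 729, 799 and 754 in DMSO, and fell by 0.50 ± 0.06 on the log2 scale. RPL26 had 3854, 4323 and 3969 against 4028, 3909 and 3635, which overlapped, with a log2 fold change of 0.07 and an adjusted p of 0.225. RPL36AL, an autosomal relative of the X-linked RPL36A, had 3779, 4083 and 3869 after TP-064 and 4771, 4892 and 4834 in DMSO, and fell by 0.31 ± 0.04. RPL36A overlapped between groups, at 961, 906 and 998 against 916, 961 and 962.

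In the other pairs the paralog itself changed little. RPL7L1, a relative of RPL7 found in ribosome precursors, rose by 0.08 ± 0.03 with an adjusted p of 0.0369, a call lost without TP-064 replicate 3, DMSO replicate 1 or DMSO replicate 3, while RPL7 had a log2 fold change of 0.01. RPL22, which binds RNA and has a known duty in lymphocyte development, had 19310, 21540 and 20330 after TP-064 and 23451, 23907 and 23144 in DMSO. It fell by 0.21 ± 0.04, and its paralog RPL22L1, at 1047, 1186 and 1107 against 1253, 1185 and 1035, overlapped and had a log2 fold change of -0.05.

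A ratio within a library does not depend on how libraries are scaled, so each paralog was also divided by its counterpart. The log2 ratio, TP-064 minus DMSO, was -1.47 for RPL39L over RPL39, -0.83 for RPS27L over RPS27, -0.57 for RPL26L1 over RPL26 and -0.32 for RPL36AL over RPL36A. It was 0.15 for RPL22L1 over RPL22 and 0.07 for RPL7L1 over RPL7. RPL26 and RPL36A share 65.3% and 77.6% of their mRNA with another gene on the same strand. The part of that overlap in their ratios was not tested. In all 6 pairs the TP-064 ratios lay outside the DMSO ratios. Such separation was common in these data: the groups did not overlap in 69.1% of all single genes tested. The share among ratios of other gene pairs was not counted. The exact permutation test, two-sided, gave p = 0.1 for each pair, which is the smallest that 3 against 3 samples allow, and 0.1 after adjustment over the 6 pairs, so no pair could pass 0.05. Coding identity to the counterpart was 53.7% for RPL7L1, 65.4% for RPL22L1, 84.1% for RPL26L1 and 89.9% for RPL36AL.

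**Figure D3:**
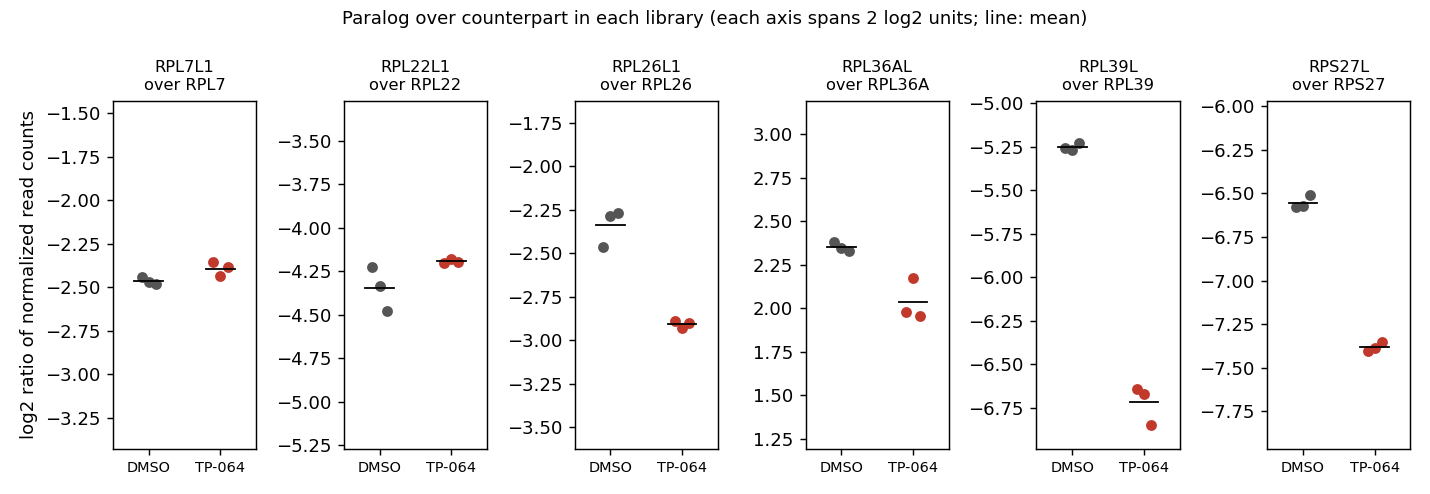
Log2 ratio of the normalized read count of a paralog to that of its counterpart in each of 3 DMSO (grey) and 3 TP-064 (red) libraries, with the mean as a line; every panel spans the same number of log2 units but is centred on its own pair. The ratio is lower after TP-064 in 4 pairs, most for RPL39L at -1.47, and higher in 2 pairs.

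Among members without an L suffix, RPS16 fell most. It encodes a small subunit protein whose tail reaches the decoding centre. Its values were 21346, 22444 and 20443 after TP-064 and 28351, 26864 and 31611 in DMSO, with no overlap. The log2 fold change was -0.43 ± 0.05, with a limma adjusted p of 3.51e-06. RPL28, a large subunit protein found in eukaryotes, had 23207, 23919 and 23178 after TP-064 and 27686, 27355 and 29290 in DMSO. It fell by 0.26 ± 0.04, again with the groups apart. RPL3, which lies close to the peptidyl transferase centre, fell by 0.21 ± 0.04, from 124123 ± 2260 in DMSO to 107351 ± 4877 after TP-064 (SD, n = 3 each). RPL8, RPL35 and RPS21, chosen after their values were seen, fell by 0.33, 0.31 and 0.27. When limma tested for changes beyond 1.2-fold, 34.8% of all genes passed, and 4 members did, the falls of RPL39L, RPS27L, RPL26L1 and RPS16. RPS16 was the one of these without an L suffix.

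RPL13A, a large subunit protein known also from interferon-regulated translation, rose most. Its values were 169088, 186273 and 169810 after TP-064 and 132952, 136000 and 143133 in DMSO. Every TP-064 value exceeded every DMSO value, and the log2 fold change was 0.35 ± 0.05, with a limma adjusted p of 1.51e-05. RPL31, at the mouth of the exit tunnel, had 37984, 42296 and 39516 after TP-064 and 33130, 33371 and 32173 in DMSO, and rose by 0.28 ± 0.04. RPS4X, the X-linked form of RPS4, had 179307, 192439 and 182897 against 155269, 161569 and 159561. None of these members overlapped between groups, and RPS4X rose by 0.22 ± 0.04. RPL10, which completes the large subunit late in its assembly, rose by 0.22 ± 0.05, from 133980 ± 1153 to 156463 ± 10811 (SD, n = 3 each).

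Members with a shared place or duty did not move as blocks. Of the stalk, which recruits elongation factors, RPLP0 rose by 0.20 ± 0.05, with 195319, 217216 and 197753 after TP-064 and 175070, 176343 and 179508 in DMSO. RPLP1, at 54462, 58300 and 50989 against 58704, 57601 and 59149, had a log2 fold change of -0.10 and a limma adjusted p of 0.0623. RPLP2, at 62596, 68152 and 58354 against 63128, 64699 and 62671, overlapped, with a log2 fold change of -0.01. Of the pair bound to 5S ribosomal RNA, RPL11 rose by 0.17 ± 0.05, with 60759, 67098 and 62440 against 54598, 59606 and 55354. RPL5, at 53891, 58692 and 54934 against 55556, 57602 and 56828, did not pass the test. RPS6, the phosphorylated target of the S6 kinases, rose by 0.19 ± 0.05, with 1 DMSO library above the lowest TP-064 library. With libraries scaled to their totals, the values of RPLP1, RPLP2 and RPL5 turned positive, at 0.021, 0.11 and 0.10. RPLP1 passed the test as a fall without TP-064 replicate 2, with a limma adjusted p of 0.00123. It also did so under scaling to the members' median, with a replicate block and in DESeq2. The call of RPS6 was lost without DMSO replicate 1 or DMSO replicate 3, at limma adjusted p of 0.0513 and 0.0575.

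The proteins around the exit tunnel, a set put together after the values were seen, went both ways. RPL31 and RPL39 rose, RPL35, RPL17 and RPL23A fell by 0.31, 0.24 and 0.21, and RPL19 and RPL26 did not pass the test, at 0.10 and 0.07. The median of these 7 was 0.07 on the log2 scale.

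The direction of 28 members did not rest on 1 library, scale or tool. These 16 rising and 12 falling members kept their call and direction with each of the 6 libraries left out in turn, under 3 other scalings in limma and in tests on recovered reads with edgeR, limma-voom and DESeq2. The share of all genes that meet the same criterion was not counted, so keeping a call is not shown to be particular to members. With all libraries, limma called 65.1% of the 16048 genes tested and 50.6% of members. The 12 that fell were RPL39L, RPS27L, RPL26L1, RPS16, RPL8, RPL35, RPL36AL, RPS21, RPL28, RPL3, RPL23A and RPL22. The members that rose included RPL13A, RPL31, RPS27, RPL13, RPL10, RPS28, RPS4X, RPL37, RPLP0, RPL39, RPS3A, RPL27A, RPS12, RPL11 and RPL10A. Those outside the naming rule are named only because they met this criterion. RPS6 and RPL7L1 were called but are not among them.

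Of the 47 members that open with a pyrimidine run, 15 rose and 8 fell, with a median of 0.03 on the log2 scale. Of the 20 matched members without one, 5 rose and 7 fell, with a median of 0.01. Over all genes tested 31.9% rose and 33.3% fell. With a run, the rising share was also 31.9%, and the falling share was below that of all genes. Without a run, a smaller share rose and a slightly larger share fell than over all genes. These small counts carry no test, so they do not show that members with a run tend to rise. Runs were counted only from the annotated first base. A tract that begins a few bases later, as in RPL10A, picked for its sequence, therefore counts as no run. Members without a run may thus still carry a tract. Across 67 members, run length and log2 fold change had a Pearson correlation of 0.197, and of 0.0663 in the 62 that are not paralogs. In the windows shown, RPL39 opens with 19 pyrimidines and rose, and RPS16 opens with 8 and fell. RPS4X has none at its annotated first base and rose. Of the paralogs matched, RPL22L1 has a run of 6, RPL36AL of 3, and RPL26L1, RPS27L and RPL7L1 have none.

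Introns of ribosomal protein genes often hold small nucleolar RNAs, which guide the modification of ribosomal RNA. Of 28 members with such a gene annotated inside, on the same strand, 10 rose and 5 fell, and of 55 without one, 13 rose and 14 fell. RPL13A holds 4 of them and RPL3 holds 3, and they moved in opposite directions. On chromosome 19, which holds 12 members, 3 rose and 4 fell, RPL13A and RPS16 among them. On chromosome X, 3 of 4 rose, namely RPL10, RPS4X and RPL39, and RPL36A was not called. Over all genes tested 31.9% rose and 33.3% fell, and these small counts carry no test. Fold change and log2 mean read count had a Pearson correlation of 0.507 across 83 members and of 0.259 across the 77 that are not paralogs. These genes share all 6 libraries, so the correlations describe this set and carry no test. Processed copies of these genes number 1144 in the annotation, of which 111 were listed, and adding their reads to their parents changed no member's call.

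Per length, members differed widely. On the scale of normalized reads per kilobase of the reference mRNA, the median member stood at 70380. RPS27 was highest, at 327547, followed by RPL19 at 198920. Among the 77 that are not paralogs the lowest were RPS10 at 720.5, RPL17 at 1013, RPL36A at 2216 and RPL26 at 7486. All 4 share most of their mRNA with another annotated gene on the same strand: RPL17 shares 91.0%, RPS10 84.0%, RPL36A 77.6% and RPL26 65.3%. RPL17, RPS10 and RPL36A do so with the read-through genes RPL17-C18orf32, RPS10-NUDT3 and RPL36A-HNRNPH2, which are not analysed here. These 4 were picked out by their low level, RPL17 after its values were seen, and a large shared part was not always accompanied by a low level among the members. The sources used here do not say how reads over shared exons were assigned, and the part of that step in these levels was not tested. RPL17 fell by 0.24 ± 0.07, and RPS10, RPL36A and RPL26 were not called. The paralogs ran from 148 for RPS27L to 5860 for RPL36AL, and RPS27L is divided by a reference mRNA of 6434 bases, far longer than its coding part of 252 bases.

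Genes that work with ribosomal proteins were described from lists chosen by role. FAU encodes a ribosomal protein fused to a ubiquitin-like protein. FAU fell by 0.22 ± 0.05, with 19365, 22001 and 18789 after TP-064 and 22690, 23362 and 23861 in DMSO. Of 19 other mRNAs known for a pyrimidine tract, 9 rose and 5 fell, and the median was 0.07 on the log2 scale. EEF2, the translocation factor of elongation, rose by 0.38 ± 0.05, with 359652, 389041 and 343268 against 275012, 280876 and 282932. EIF3F, of the initiation factor eIF3, rose by 0.26 ± 0.03. Elongation factor EEF1A1 and the ribosome-bound scaffold RACK1, chosen after their values were seen, rose by 0.38 and 0.26. VIM, which encodes vimentin, and NPM1, a nucleolar chaperone, fell by 0.52 ± 0.04 and 0.50 ± 0.05.

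Regulators of ribosomal protein mRNA translation included changes larger than those of nearly all members. Of 18 genes, 4 rose and 11 fell, and their median was -0.20 on the log2 scale. PDCD4, an inhibitor of the helicase eIF4A, had 7237, 7327 and 7857 normalized read counts after TP-064 and 3225, 3294 and 3144 in DMSO, and rose by 1.21 ± 0.04. TSC1, which restrains mTORC1, had 3960, 3612 and 3701 against 2186, 2105 and 2172, and rose by 0.80 ± 0.04. RPS6KB1, the S6 kinase downstream of mTORC1, had 3692, 3953 and 3870 against 5851, 5781 and 5814, and fell by 0.60 ± 0.04. LARP4, which binds poly(A) tails, fell by 0.54 ± 0.04. LARP1, chosen after its values were seen, fell by 0.25 ± 0.03.

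Of 15 chaperones, importers and quality control factors of ribosomal proteins, 9 fell and the other 6 did not pass the test, with a median of -0.28. The import receptors IPO5 and TNPO1 fell by 0.88 ± 0.03 and 0.45 ± 0.03. IPO5 had 12027, 12337 and 12208 after TP-064 and 22293, 22310 and 22547 in DMSO. Of the genes listed for the 5S particle and MDM2, MDM4, a relative of MDM2, rose by 0.33 ± 0.04, and 3 fell, among them BRIX1, an assembly factor of the large subunit, by 0.85 ± 0.04 and MDM2 by 0.59 ± 0.03. Of 8 factors known to bind ribosomal protein promoters, 6 fell, with SP1 at -0.49 and SP3 at -0.41, and MAX rose by 0.11. The call of MAX was lost in 7 of 19 alternatives, among them leaving out TP-064 replicate 1, TP-064 replicate 2, DMSO replicate 1 or DMSO replicate 3, with limma adjusted p of 0.0562 to 0.132. MYC had a log2 fold change of 0.09 and an adjusted p of 0.0519 and was named after its values were seen. Of 9 modifiers of ribosomal proteins, 4 fell, among them the methyltransferase NTMT1 by 0.45 ± 0.05 and the deubiquitinase USP10 by 0.41 ± 0.03. Over all genes tested, 33.3% fell and 31.9% rose, and these lists are counted beside that share without a test of their own.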

How the data were processed

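Poly(A) RNA of 6 Toledo samples was made into stranded libraries, per the labels' protocols. The authors deposited a normalized signal per gene, the read count divided by a size factor of the library. TopHat2 2.0.10, HTSeq 0.6.0, DESeq 1.18.0 and hg38 are named in the submitters' processing notes. For the counting, the annotation release and strand setting are not given in the sources used. Multiplying by the size factor returned whole reads for 100% of values, within 0.001. In both replicate 2 columns the factor is close to 1, so recovery is less certain there.

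Groups come from the sample labels. limma 3.58.1 (R 4.3.3, trend option) was fitted to log2(value + 1) for the 16048 genes with a mean of at least 10. Benjamini-Hochberg adjustment ran over all of them, two-sided. Fold changes are on that scale, which understates changes of low genes. Replicates differed by more than sampling noise, at 3.21 to 8.10 in chi-square per degree of freedom.

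Alternatives used edgeR 4.0.16, DESeq2 1.42.0 and limma-voom on recovered reads, other scalings, filters, pseudocounts, thresholds and left-out libraries. Symbols and coordinates are from GENCODE release 29 (18214 of 18278 genes matched). The reference mRNA of a gene is its shortest basic transcript with the principal coding length. Members, lists and rules were chosen with earlier results of these data known. The genes named are the paralog pairs, the stalk, RPL5, RPL11, RPS6, the 6 called members of smallest p in each direction, those with the 3 highest and 3 lowest levels per length over all exons, and up to 2 called genes in each direction from each list, with FAU. A few genes are left out of the text and plots, though they are counted.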

Additional observations from a re-analysis of the deposited data

How the results depend on the processing

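With library size scaling 53 members rose and 12 fell, the medians were 0.14 over all members, 0.13 in the large and 0.15 in the small subunit, and the log2 fold changes of RPLP2 and RPL5 reversed to 0.11 and 0.10. Under a null of a 1.2-fold change, a stricter test by construction, 5592 genes were called, with 0 rising and 4 falling members in limma (1 and 4 at an unadjusted p under 0.05). The calls then numbered 3 in other pyrimidine-tract mRNAs, 6 in regulators, 5 in chaperones and importers, and 2 each in the 5S particle, promoter factor and modifier lists. Without members that have exons opposite another gene the difference of medians, large minus small subunit, was 0.034. With 1 library left out at a time, falling members numbered 15 to 29, the highest without TP-064 replicate 2, rising members 17 to 26, and that difference ran from -0.034 to 0.013. Over all genes, 9733 to 10260 were called in those fits. The cause of these moves was not tested. The paralog ratios kept their direction with each library left out. Other filters, pseudocounts, TMM, a threshold of 0.01 and the tests on recovered reads kept the counts of rising and of falling members within 1.5 times.

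Over the 16048 genes tested, same-numbered samples did not deviate together, with correlations of -0.0859, 0.0659 and -0.0793, so the replicate numbers are not treated as pairs. Among members, replicate 2 had the highest and replicate 1 the lowest median in both groups. Whether the members deviate by replicate number was not tested. A replicate block gave 10491 called genes, 30 rising and 20 falling members. Scaling to the members' median and leaving out members that share 50% or more of their mRNA were added after the data were seen, and gave 25 and 20, and 23 and 18, rising and falling members.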
